A study of Mus musculus with 2 samples.

Results

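Expression of 9 genes was described in bone marrow progenitors of mice that carry or lack the element called LCR1. Of these genes, 7 belong to the programme of group 3 innate lymphoid cells (ILC3): the receptor genes Il23r and Il1r1, the cytokine genes Il22, Il17a and Il17f, and the lymphotoxin genes Lta and Ltb. The other members were Ahr, which encodes the aryl hydrocarbon receptor, and its target gene Tiparp. They were chosen by symbol, and all 9 were found among the 31053 genes listed in both libraries. Single-cell libraries (10x Genomics, reading transcript 3' ends with unique molecular identifiers, UMIs) were made from C57BL/6 mice aged 8 to 12 weeks. One library came from LCR1+/+ animals (WT) and 1 from LCR1-/- animals (KO), and each pooled animals of a genotype, with males and females in equal number. Cells had been sorted as viable, CD45+, lineage-negative and CD127+, so both groups share this gate, and the labels name no treatment. Each genotype thus had 1 sample, no difference below has a replicate check, and every interval covers counting error only (95%, exact).

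ILC3 are innate lymphocytes of mucosal tissues and lymphoid organs, and the lymphoid tissue inducer (LTi) cells of the fetus belong to the same group. IL-23 and IL-1 act on them through receptors that include the products of Il23r and Il1r1, and activated cells release IL-22, IL-17A and IL-17F. LTi cells carry lymphotoxin, a membrane complex of the Lta and Ltb products, which signals to stromal cells through the lymphotoxin beta receptor. AHR is a ligand-activated transcription factor that enters the nucleus, pairs with ARNT and binds the core GCGTG, and ILC3 of the adult gut depend on it. Tiparp encodes a member of the poly-ADP-ribose polymerase (PARP) family that AHR induces and that in turn represses AHR.

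The 9 genes lie on 6 chromosomes in the mouse build GRCm38 (GENCODE M21). Il23r is at chr6:67422932-67491855 on the minus strand, and Il1r1 at chr1:40225080-40317257 on the plus strand. Il17a (chr1:20730905-20734496, plus strand) and Il17f (chr1:20777146-20790617, minus strand) are neighbours, 42.65 kb apart. Ltb (chr17:35194439-35196320, plus strand) and Lta (chr17:35203165-35205351, minus strand) are 6.845 kb apart. Il22 is at chr10:118204942-118210047 on the plus strand, Ahr at chr12:35497974-35535038 on the minus strand, and Tiparp at chr3:65528410-65555518 on the plus strand. RefSeq promoters (GRCm38.p6, 250 bases before to 50 after the start) were found for 8 of the 9 genes. They were searched on both strands for the AHR core GCGTG and for AGGTCA, a half-site bound by many nuclear receptors, among them the retinoid-related orphan receptor encoded by Rora. No promoter of these 8 genes held matches of both motifs. The promoter of Il23r, the member most restricted to one class below, those of its cytokine genes Il17a and Il17f, and that of the AHR target Tiparp are printed 5′ to 3′ with the matches in capitals. A match on the minus strand reads TGACCT or CACGC.
Il23r (chr6:67491806-67492105, minus strand): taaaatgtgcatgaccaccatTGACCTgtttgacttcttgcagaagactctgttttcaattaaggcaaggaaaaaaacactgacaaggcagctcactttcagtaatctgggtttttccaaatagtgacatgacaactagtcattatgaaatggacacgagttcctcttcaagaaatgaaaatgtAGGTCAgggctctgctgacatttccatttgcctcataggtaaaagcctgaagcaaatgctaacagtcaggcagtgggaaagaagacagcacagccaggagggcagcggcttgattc
Il17a (chr1:20730655-20730954, plus strand): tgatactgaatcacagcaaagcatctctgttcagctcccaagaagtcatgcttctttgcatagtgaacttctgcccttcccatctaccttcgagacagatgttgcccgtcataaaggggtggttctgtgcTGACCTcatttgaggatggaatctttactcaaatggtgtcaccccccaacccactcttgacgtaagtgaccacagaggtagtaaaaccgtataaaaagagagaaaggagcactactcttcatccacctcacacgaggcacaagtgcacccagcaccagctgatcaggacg
Il17f (chr1:20784221-20784520, minus strand): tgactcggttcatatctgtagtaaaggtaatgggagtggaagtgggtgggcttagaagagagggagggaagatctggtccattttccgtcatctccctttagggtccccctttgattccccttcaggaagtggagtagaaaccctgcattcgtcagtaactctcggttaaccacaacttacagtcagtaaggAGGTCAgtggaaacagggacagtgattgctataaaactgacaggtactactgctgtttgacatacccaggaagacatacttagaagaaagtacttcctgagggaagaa
Tiparp (chr3:65528197-65528496, plus strand): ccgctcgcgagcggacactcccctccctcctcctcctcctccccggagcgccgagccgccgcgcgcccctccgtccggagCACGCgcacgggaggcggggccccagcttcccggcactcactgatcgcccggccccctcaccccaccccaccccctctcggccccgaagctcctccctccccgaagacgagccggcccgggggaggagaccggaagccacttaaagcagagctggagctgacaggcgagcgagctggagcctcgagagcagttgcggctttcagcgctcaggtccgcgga
The Il23r promoter held AGGTCA at 2 places, 229 and 66 bases before the start, and those of Il17a and Il17f at 1 place each, 120 and 58 bases before it. Among 32851 promoters of the same length 16.3% held AGGTCA and 1.81% held it at least 2 times. The Tiparp promoter held GCGTG once, 170 bases before the start, as did 32.4% of all promoters at least once. The promoters of Il22, Lta and Ltb held neither motif, and those of Il1r1 held only GCGTG. A match describes the letters and is no evidence of binding.

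The WT library held 20293 barcodes with 47883132 UMIs and the KO library 8476 barcodes with 52137780 UMIs. Barcodes were kept if they had 1000 genes or more and a mitochondrial share of UMIs of 10% or less, which left 3290 WT and 4343 KO cells with medians of 5371.5 and 7261 UMIs. No barcode sequence was shared between the kept cells of the libraries. Each cell was given the class whose 8 markers were detected most often, if at least 3 were detected and at least 1 more than for any of the 12 other lists. This gated 84.5% of WT and 85.4% of KO cells, and 8 classes had at least 30 cells in both libraries. Id2, a transcriptional regulator needed for innate lymphoid development, was 4.04-fold lower in KO in ILC2-like cells and 4.97-fold lower in ILC precursor-like cells. It was 5.44-fold lower in basophil or mast cell-like, 2.81-fold in plasmacytoid dendritic and 2.12-fold in common lymphoid progenitor-like cells. In NK or ILC1-like cells it was 1.48-fold lower and in CD3 lymphocyte-like cells 1.81-fold, neither reaching 2-fold. In early B-like cells it was 2.08-fold lower, with an interval that included 1 (0.952 to 5.00). In the ILC3-like class described next its level was 1404 CPM (WT, 21 cells) against 98.2 CPM (KO, 232 cells). No transcript count measures the deletion of LCR1 itself. The libraries differed in the shares of the classes, and within a class fewer cells that express a gene and less RNA per cell cannot be told apart.

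None of the 9 genes was among the markers of the ILC3-like class, which included Ccr6, Cxcr5, Cd4, Nrp1, Tmem176a, Tmem176b and Tnfsf11. The class held 21 WT cells, 0.638% of the kept cells (0.396% to 0.974%), and 232 KO cells, 5.34% (4.69% to 6.05%). The KO share was 8.37 times the WT share. Some other lymphoid classes were also larger shares in KO: ILC precursor-like cells 2.78 times, NK or ILC1-like cells 2.61 times and CD3 lymphocyte-like cells 2.18 times. Others were smaller shares: plasmacytoid dendritic cells 0.374 times, early B-like cells 0.417 times, basophil or mast cell-like cells 0.438 times and ILC2-like cells 0.647 times the WT share. Common lymphoid progenitor-like cells were 0.953 times the WT share, and the intervals of their shares overlapped (WT 30.7% to 33.9%, KO 29.4% to 32.1%). All 8 markers of the class were detected in both libraries. Genes of antigen presentation by class II led it (H2-Eb1, Cd74, H2-Aa and H2-Ab1), with the marker Ccr6, a chemokine receptor of LTi-like cells. Dendritic cells and monocytes also carry class II. Of their 8 markers Itgax, Csf1r, Cd209a, Clec9a and Xcr1 had no UMI in the class in either library. The summed level of the 8 dendritic cell and monocyte markers was 159 CPM (a gene's UMIs scaled to a class total of 1000000 UMIs) in WT and 99.6 CPM in KO, with 6 and 5 of the 8 genes at 0. Zbtb46, a transcription factor gene of conventional dendritic cells, was not at 0, with a UMI in 19.0% of WT (30.9 CPM) and 12.9% of KO cells (24.0 CPM), and Batf3 was read as well. The part of such cells in the ILC3-like values was not tested. Of the ILC3-like cells, 14 WT and 103 KO cells had a margin of only 1 marker over another list. Because the WT class held 21 cells, its values stand beside those of KO without a comparison.

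Il23r, the receptor chain that recognises IL-23, was the member most restricted to ILC3-like cells. Il23r stood at 30.9 CPM in the WT ILC3-like cells (6 UMIs, 11.3 to 67.2) and at 72.8 CPM in the KO ones (103 UMIs, 59.4 to 88.3). ILC precursor-like cells had 2.68 CPM in WT and 5.40 CPM in KO, where they came second among the gated classes. CD3 lymphocyte-like cells had 1 UMI in WT (3.28 CPM) and 2 in KO (2.80 CPM). ILC2-like cells had no UMI in WT and 1 in KO. No UMI was found in NK or ILC1-like, early B-like, plasmacytoid dendritic or basophil-like cells of either library. Within KO the ILC3-like level was thus 13.5 times that of ILC precursor-like cells (9.03 to 20.6). Among the KO ILC3-like cells 33.6% had an Il23r UMI, against 0.225% of cells of the common lymphoid progenitor (CLP) class, which had a median of 13981 UMIs per cell against 5563.5.

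Over all kept cells Il23r was found in 16 WT cells (22 UMIs) and 139 KO cells (181 UMIs), and its level was 0.754 CPM against 4.25 CPM. This was a 5.63-fold difference (3.61 to 9.21), set beside the larger share of ILC3-like cells in KO. A gene was called different between libraries if it had at least 20 UMIs in the compared cells, differed at least 2-fold in CPM and had an interval that left out 1. Il23r was the only member called over all kept cells, where 2.53% of 14410 genes were called higher and 1.48% lower in KO. In ILC precursor-like cells, with 33 KO and 6 WT UMIs, the ratio was 2.01 (0.833 to 5.88) and was not called.

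The cells outside the ILC3-like class that held Il23r mostly carried ILC3 markers too. Of the ungated cells with an Il23r UMI, 5 of 5 in WT and 28 of 29 in KO had at least 3 ILC3 markers. The share of ungated cells without Il23r that had as many is not given, so these counts have no background. Of the ILC precursor-like cells, 18 of the 27 KO cells with Il23r (66.7%) had at least 3 ILC3 markers, against 30.7% of those without it. In WT this was so for 3 of 4 cells with Il23r and 30.5% of those without. Over all kept KO cells Il23r was at 0 in cells with 0 or 1 ILC3 marker, at 2.69 CPM with 3, at 37.4 CPM with 4 and at 86.9 CPM with 6 or more. The WT values at the same marker numbers were 0, 1.49, 11.0 and 28.8 CPM, the last from 10 cells with 5 UMIs. Il1r1 and Lta followed the same order in KO above 3 markers, as the plot of levels by marker number shows. Cells with more markers also differ in depth, with medians from 5790 to 9599 UMIs in KO and from 2885 (no marker) to 14177 (6 or more) in WT, and the part of depth was not tested.

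**Figure D1:**
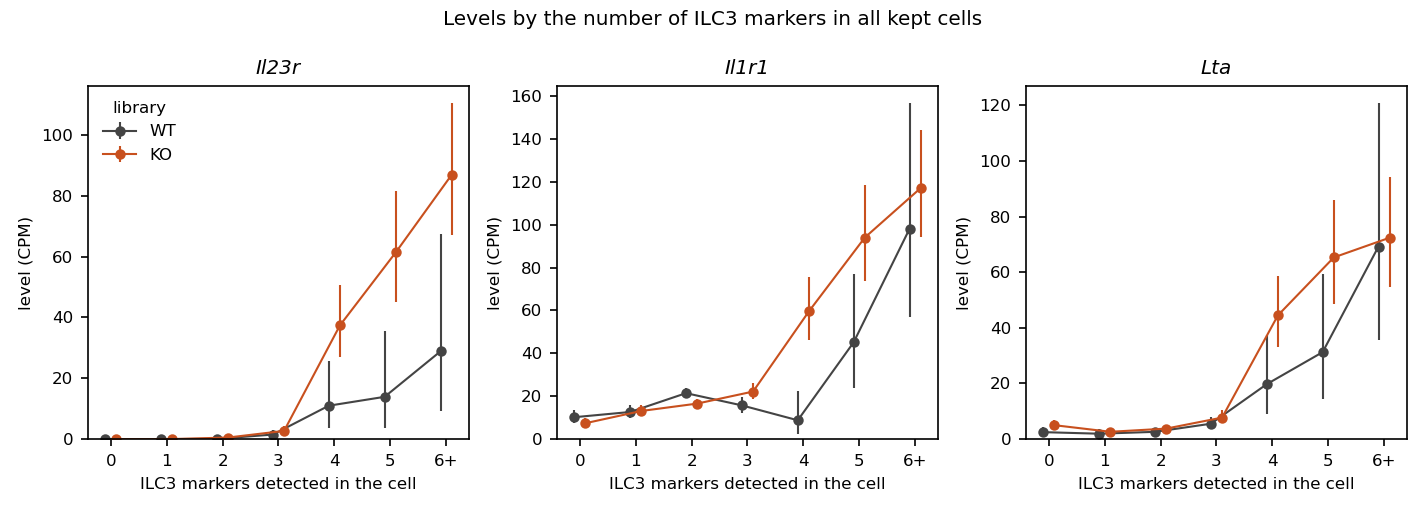
Level of Il23r, Il1r1 and Lta (vertical axes, CPM) in all kept cells of each library by the number of ILC3 markers detected in the cell (horizontal axes, 6+ is 6 or more), with points for pooled UMIs and bars for the exact 95% Poisson interval. In KO cells Il23r stays below 3 CPM up to 3 markers and reaches 86.9 CPM at 6 or more, and the WT points at 4 or more markers rest on 37, 17 and 10 cells.

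Il1r1, the signalling receptor for IL-1, was highest in ILC3-like cells but was also found in progenitors. The ILC3-like level was 51.4 CPM in WT (10 UMIs, 24.7 to 94.6) and 103 CPM in KO (146 UMIs, 87.1 to 121). CLP-like cells came second with 29.1 CPM in WT and 20.8 CPM in KO, and 73.9% of all WT UMIs of Il1r1 came from them, against 51.0% in KO. Most Il1r1 transcripts were therefore read outside the ILC3-like class in both libraries, while the ILC3-like class held 56.9% of the Il23r UMIs in KO. In WT it held 27.3% (6 of 22 UMIs), so there most Il23r UMIs also lay outside the class. ILC precursor-like cells had 17.0 CPM in WT and 19.9 CPM in KO, and ILC2-like cells had 2 UMIs in WT and 3 in KO. Among WT classes the intervals of neighbours in this order overlapped throughout, and in KO only the ILC3-like class stood apart from the next. In CLP-like cells the KO level was 0.715 times the WT level (0.621 to 0.823), a difference under 2-fold that was not called, and the intervals of the levels did not overlap. In CD3 lymphocyte-like cells 8 WT UMIs stood against 3 in KO, under the minimum for a comparison.

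The effector cytokine genes were almost silent in both libraries. Il22, whose product acts on epithelial cells, had 3 UMIs in 1 WT cell, an ILC3-like one. In KO it had 5 UMIs in 4 cells, 2 of them ILC3-like, 1 ILC precursor-like and 1 ungated. Il17a had no UMI in WT, which allows up to 0.103 CPM (3 UMIs over all kept cells), and 1 UMI in KO, in a CD3 lymphocyte-like cell. With these counts no difference between libraries was detectable for Il22 or Il17a. Il17f, encoded next to Il17a, was read more often, with 12 UMIs in 12 WT cells and 29 UMIs in 24 KO cells. CLP-like cells held 8 of the 12 WT UMIs and 13 of the 29 KO UMIs. ILC3-like cells held 1 and 8, the latter in 5 cells. On the CPM scale Il17f was at 5.65 CPM in KO ILC3-like cells (2.44 to 11.1) and at 0.633 CPM in KO CLP-like cells (0.337 to 1.08). Its level in CLP-like cells was 0.613 CPM in WT, and over all kept cells the KO level was 1.65 times the WT level (0.819 to 3.56), which was not called.

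The lymphotoxin genes differed in how far they reached beyond the ILC3-like cells. Lta, which encodes the soluble or membrane-bound alpha chain, stood at 92.6 CPM in WT ILC3-like cells (18 UMIs, 54.9 to 146) and at 74.9 CPM in KO (106 UMIs, 61.3 to 90.6). ILC precursor-like cells had 13.9 CPM in WT and 15.4 CPM in KO. ILC2-like cells had 5.92 and 7.32 CPM, and plasmacytoid dendritic cells no UMI. CD3 lymphocyte-like cells had 1 UMI in WT and 13 in KO, where their 18.2 CPM came second. Both libraries placed the ILC3-like class clear of every other class for Lta. Over all kept cells Lta was 1.99 times higher in KO (1.60 to 2.48), just under the 2-fold limit, again beside the larger ILC3-like share.

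Ltb, the beta chain that anchors lymphotoxin in the membrane, was read in all lymphoid classes. Its level was 1507 CPM in WT ILC3-like cells and 1708 CPM in KO, and 99.1% of the 232 KO cells had a UMI. ILC2-like cells had 745 CPM in WT (720.4 to 771) and 739 CPM in KO (709 to 769.7), a ratio of 0.992 (0.940 to 1.05). NK or ILC1-like cells had 646 and 630.3 CPM, and CD3 lymphocyte-like cells 538 and 547 CPM. In these 3 classes the interval of the ratio included 1. ILC precursor-like cells had 518 CPM in WT and 606 CPM in KO, a ratio of 1.17 (1.09 to 1.25). Basophil or mast cell-like cells had 118 CPM in WT and 82.7 CPM in KO, a ratio of 0.702 (0.573 to 0.859). Both were below 2-fold and neither was called. CLP-like cells had 33.1 and 36.9 CPM, so Ltb was 46.3 times higher in ILC3-like than in CLP-like cells within KO (42.7 to 50.3).

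**Figure D2:**
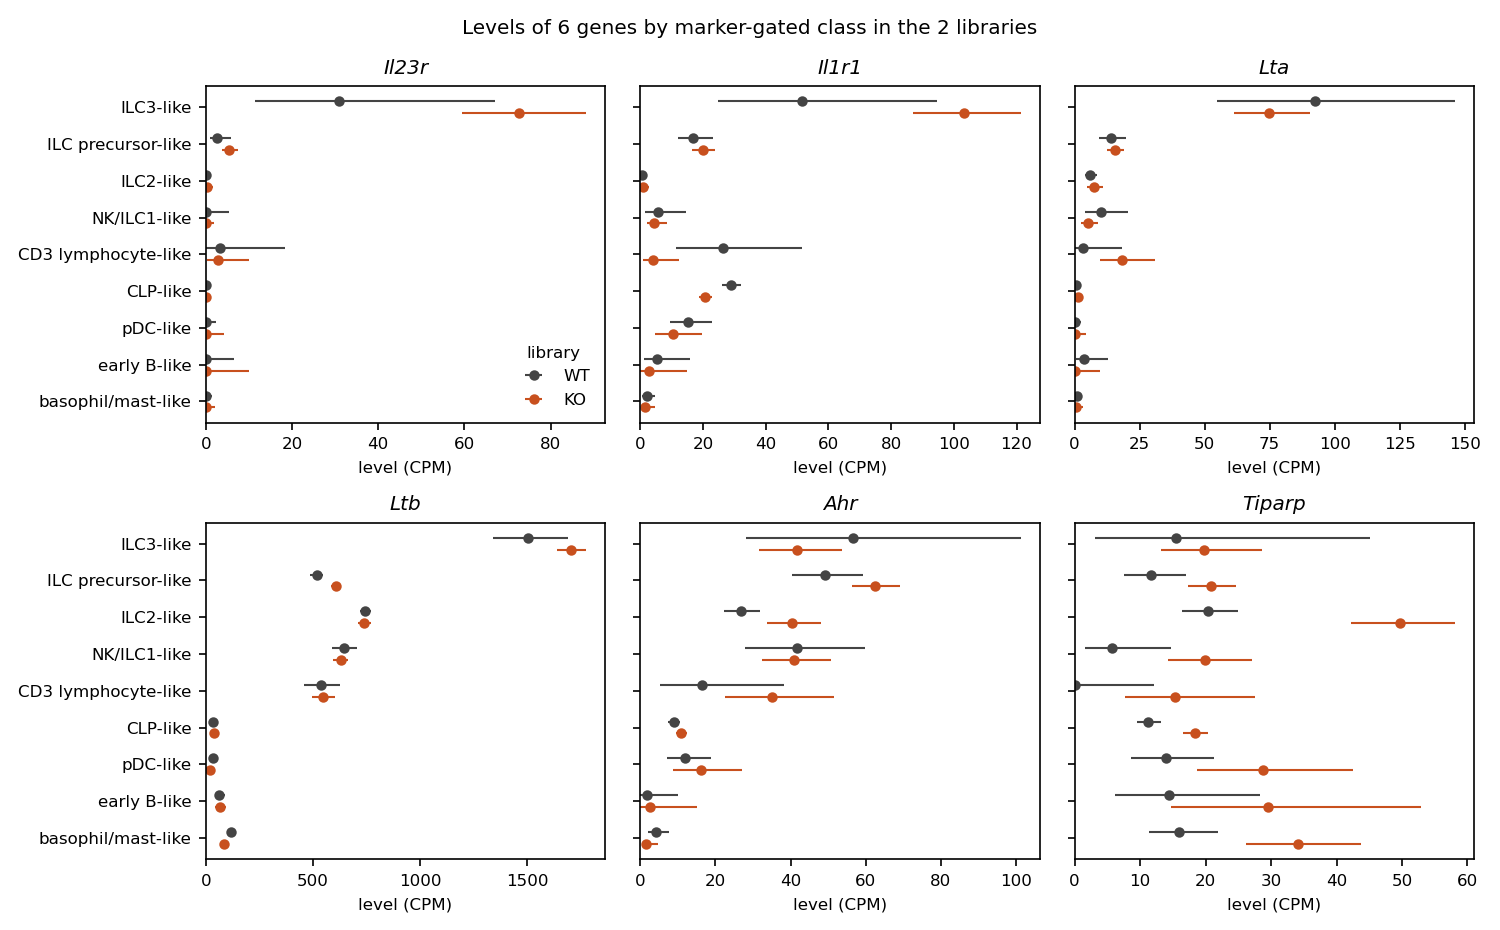
Level of 6 genes (horizontal axes, CPM) in 9 marker-gated classes (vertical axis) of the WT library (grey) and the KO library (orange), with points for pooled UMIs and bars for the exact 95% Poisson interval. Il23r, Il1r1, Lta and Ltb are highest in the ILC3-like class of both libraries, Ahr spreads over the innate lymphoid and NK or ILC1-like classes, and Tiparp points of KO lie to the right of those of WT, with overlapping intervals in some classes such as the ILC3-like class with 3 WT UMIs.

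Within the KO library the ILC3 genes separated the ILC3-like class from each of the other innate lymphoid classes. Against ILC precursor-like cells 4 of the 6 members with at least 20 UMIs were called higher (Il23r, Il1r1, Lta and Ltb), where 6.18% of 10959 genes were called higher and 6.93% lower. Il1r1 was 5.17 times higher (4.04 to 6.63), Lta 4.87 times (3.66 to 6.50) and Ltb 2.82 times (2.68 to 2.97). Against ILC2-like cells the same 4 members were called higher, with backgrounds of 14.6% higher and 5.1% lower, and Lta was 10.2 times higher (6.47 to 16.8). Ahr did not separate them: its level in KO ILC3-like cells was 0.667 times that of ILC precursor-like cells (0.498 to 0.880) and 1.03 times that of ILC2-like cells (0.744 to 1.41). Tiparp was called lower in ILC3-like than in ILC2-like cells, by 2.51-fold (1.67 to 3.90). Against NK or ILC1-like cells Il23r, Il1r1, Lta and Ltb were called higher (backgrounds 10.5% higher, 5.52% lower). Against CLP-like cells Il17f and Ahr were called higher too (12.6% and 11.8%), with Ahr 3.84 times higher (2.83 to 5.13).

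In single ILC3-like cells different subsets of these genes were read. The 232 KO cells had a median of 2 of the 9 members, 1 cell had none and 1 had 6. Il23r was detected in 78 cells and Il1r1 in 99, and 35 cells had both. Lta was detected in 68 cells, and 28 of them had Il23r. All 68 also had Ltb, which was detected in 230 of the 232 cells. The 2 KO ILC3-like cells with Il22 included 1 with Il23r, and the 5 with Il17f included 2. In the 21 WT cells, Il23r was in 5 and Il1r1 in 6, with no cell holding both, and Il1r1 and Lta shared 5 cells. At these depths a missing UMI does not show that a cell lacks the transcript, and these overlaps have no background.

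Partners of these genes were read from lists of the same pathways. In ILC3-like cells Il12rb1, the chain that IL-23 and IL-12 receptors share, was read at 30.9 CPM (WT) and 31.1 CPM (KO). Stat3, which carries the IL-23 signal, was read at 92.6 and 112 CPM. Il1rap, the accessory chain of the IL-1 receptor, had no UMI in WT and 5 in KO. Tnf, a relative of the lymphotoxins encoded in the same cluster, was at 108 CPM (WT) and 125 CPM (KO), against 29.9 and 37.0 CPM in ILC precursor-like cells. The receptor for lymphotoxin, Ltbr, had 2 and 12 UMIs. Il17re, a receptor chain for IL-17C, was at 118 and 132 CPM in ILC3-like cells, 23.7 and 25.3 CPM in ILC precursor-like cells and 1.75 and 1.91 CPM in ILC2-like cells. Il22ra1, the receptor chain for IL-22 that epithelial cells carry, had no UMI in ILC3-like cells. Rora stood at 741 CPM in WT ILC3-like cells (144 UMIs) and 326 CPM in KO (462 UMIs). Csf2, which encodes the cytokine GM-CSF, had 4 UMIs in WT and 3 in KO. The list of further ILC3 genes also holds Ccr6 and Cxcr5, which are markers of the gate.

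Ahr, the receptor, was read in all innate lymphoid classes, most in ILC precursor-like cells in KO, and was lower in CLP-like cells. In WT it ranged from 56.6 CPM in ILC3-like cells (11 UMIs, 28.2 to 101) through 49.1 CPM in ILC precursor-like, 41.6 CPM in NK or ILC1-like and 26.7 CPM in ILC2-like cells. CLP-like cells had 8.89 CPM in WT and 10.9 CPM in KO, and basophil or mast cell-like cells 4.10 and 1.65 CPM. In WT neighbours in this order overlapped in their intervals, but ILC precursor-like (40.4 to 59.2) and ILC2-like cells (22.2 to 31.9) did not. In KO the ILC precursor-like cells led with 62.5 CPM (56.4 to 69.0), above ILC3-like cells with 41.7 CPM (31.7 to 53.8).

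Between libraries Ahr was higher in KO ILC2-like cells, with 40.4 CPM (127 UMIs) against 26.7 CPM (122 UMIs), a ratio of 1.51 (1.17 to 1.96). In ILC precursor-like cells the ratio was 1.27 (1.03 to 1.59), from 62.5 against 49.1 CPM. Both differences were under 2-fold and Ahr was called in no class. In NK or ILC1-like cells the levels were 40.9 and 41.6 CPM and the ratio was 0.982 (0.636 to 1.56). In CLP-like cells it was 1.22 (0.972 to 1.54). The ratio in ILC2-like cells was 1.26 with every cell thinned to 1500 UMIs (0.802 to 1.97) and 1.30 with a margin of 2 markers (0.955 to 1.78), where the interval included 1. In ILC precursor-like cells the interval included 1 under 4 alternatives: the 5% mitochondrial limit, thinned cells, gates set on thinned cells and a margin of 2 markers, with ratios from 1.16 to 1.34.

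Tiparp, the AHR target, was compared in the 8 classes with at least 30 cells in both libraries, which leave out the ILC3-like class. In each of the 6 of these where it had at least 20 UMIs, the ratio of KO over WT was above 1. The interval of this ratio left out 1 in each. In some of these classes, given below, the interval included 1 under other settings. The ILC2-like level was 20.4 CPM (WT, 93 UMIs, 16.4 to 25.0) and 49.7 CPM (KO, 156 UMIs, 42.2 to 58.1), a 2.44-fold difference (1.87 to 3.19). The share of ILC2-like cells with a Tiparp UMI was 9.40% in WT and 17.3% in KO, with median depths of 5363 and 4471.5 UMIs. With every cell thinned to 1500 UMIs it was 2.45% (1.48% to 3.79%) against 8.43% (6.43% to 10.8%). Tiparp was the only one of 4 measured members called in ILC2-like cells, where 0.898% of 10357 genes were called higher and 2.89% lower in KO.

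The other classes differed in the same direction. Basophil or mast cell-like cells had 16.0 CPM in WT and 34.2 CPM in KO, a ratio of 2.14 (1.41 to 3.28), with Tiparp 1 of 2 measured members called and backgrounds of 1.09% higher and 2.53% lower. Plasmacytoid dendritic cells had 13.9 and 28.8 CPM, a ratio of 2.07 (1.11 to 3.89), with 1 of 4 measured members called and backgrounds of 1.06% higher and 2.15% lower. This call was lost in 6 of 7 alternatives, with ratios from 1.42 to 1.97. NK or ILC1-like cells had 4 UMIs in WT and 40 in KO, 5.74 against 19.9 CPM. Their ratio was 3.47 (1.25 to 13.4), with 1 of 3 measured members called and backgrounds of 1.91% higher and 1.06% lower. This ratio was 1.00 when the gates were set on cells thinned to 1500 UMIs and 1.91 with clusters, and with the 5% mitochondrial limit its interval included 1 (2.81, 0.987 to 11.0). In ILC precursor-like cells the ratio was 1.79 (1.17 to 2.84), from 11.6 to 20.8 CPM, and in CLP-like cells 1.63 (1.35 to 1.99), from 11.3 to 18.4 CPM. Neither reached 2-fold, and no member was called in these classes among 6 measured in each. Their backgrounds were 1.82% higher and 1.11% lower in ILC precursor-like cells, and 1.49% higher and 1.03% lower in CLP-like cells. The Tiparp interval in ILC precursor-like cells included 1 under several alternatives. These were leaving out likely doublets (1.42, 0.901 to 2.31), thinned cells, gates set on thinned cells, a margin of 2 markers and clusters. The ratios there lay between 1.23 and 2.10. CD3 lymphocyte-like cells had no UMI in WT and 11 in KO, and early B-like cells 8 and 11, both below the minimum of 20 UMIs. No member was called among the 2 measured in CD3 lymphocyte-like cells (backgrounds 1.77% higher, 2.3% lower) or the 1 measured in early B-like cells (3.11% and 2.82%). In ILC3-like cells 3 WT UMIs (15.4 CPM, 3.18 to 45.1) stood beside 28 KO UMIs (19.8 CPM, 13.1 to 28.6).

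**Figure D3:**
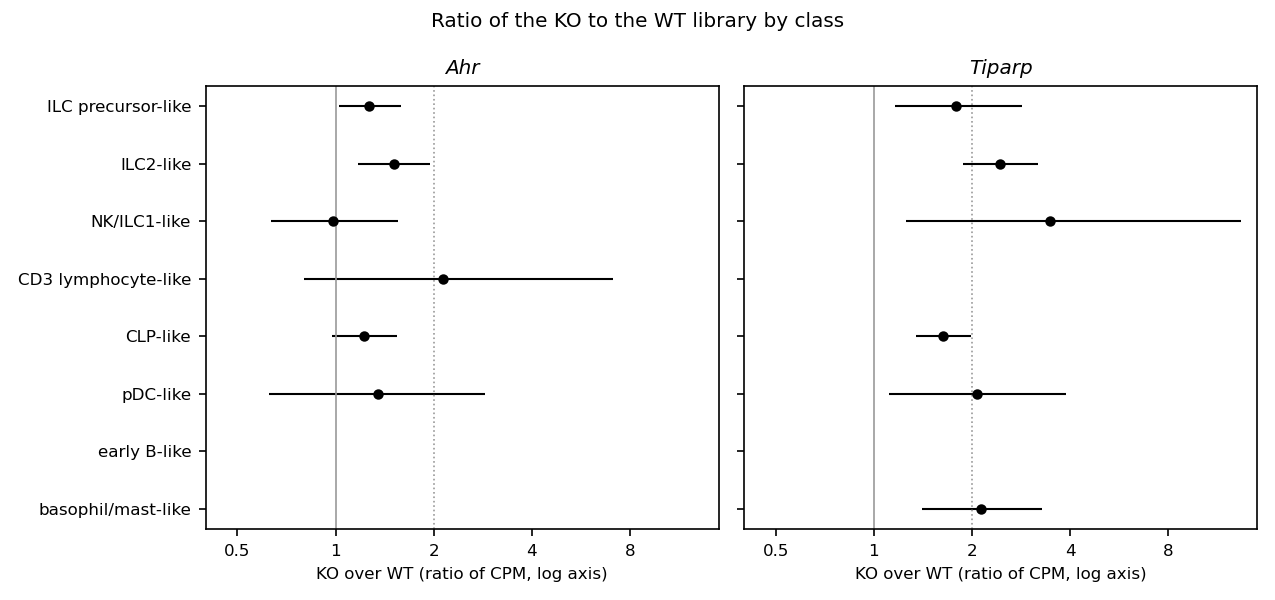
Ratio of the KO to the WT level (horizontal axes, ratio of CPM on a log axis) of Ahr and Tiparp in 8 classes, with points for pooled UMIs and bars for the exact 95% interval of counting error. The solid line marks 1 and the dotted line 2, and classes with fewer than 20 UMIs over both libraries have no point. All Tiparp points lie above 1, from 1.63 in CLP-like to 3.47 in NK or ILC1-like cells, while the Ahr interval leaves out 1 only in ILC precursor-like and ILC2-like cells, and there not under every alternative. The Tiparp interval also includes 1 under some alternatives in some classes, such as ILC precursor-like cells.

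Tiparp and Ahr did not follow each other across classes. ILC2-like cells had the highest Tiparp level in both libraries and had less Ahr than ILC precursor-like cells in both, with intervals that did not overlap. The Tiparp interval of ILC2-like cells overlapped that of the next class, basophil or mast cell-like, in each library. Over the 17 groups of a class and library with at least 30 cells, the Pearson correlation of their log2(CPM + 5) values was -0.08, given as a description because groups of a library share its depth and processing. Within KO ILC2-like cells 22.9% of the 109 cells with an Ahr UMI also had Tiparp (15.4% to 32.0%), against 16.2% of the 555 without (13.2% to 19.6%). In WT ILC2-like cells the shares were 9.80% and 9.33%. In WT CLP-like cells they were 23.6% (15.2% to 33.8%) and 9.98% (8.17% to 12.0%), and in KO CLP-like cells 21.5% and 20.6%. Deeper cells hold more UMIs of both genes, and the part of depth in these shares was not tested.

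Other targets of AHR gave little signal. Cyp1a1, Cyp1a2 and Cyp1b1, the cytochromes that AHR induces in other tissues, had no UMI in ILC2-like, ILC precursor-like, NK or ILC1-like, ILC3-like or CLP-like cells of either library. Ahrr, which encodes the AHR repressor, had 1 UMI in ILC3-like cells, in KO. Of the 6 targets other than Tiparp, 1 reached 20 UMIs in any class: the aldehyde dehydrogenase gene Aldh3a1 was called lower in KO ILC precursor-like cells by 2.29-fold (1.37 to 3.79), from 13.9 to 6.05 CPM. The genes of the AHR complex had 0 of up to 6 measured members called in each of the 8 classes, with medians between -0.34 and 0.27 on the log2 scale, beside medians of all genes between -0.09 and 0.02. Arnt2, a homologue of Arnt, was at 30.9 CPM (WT) and 32.5 CPM (KO) in ILC3-like cells, against 2.68 and 5.40 CPM in ILC precursor-like cells and 1 UMI in all ILC2-like cells.

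A list of 12 immediate early genes was set beside Tiparp. These genes respond within minutes to stimulation, and tissue dissociation is known to induce them. Their median log2 ratio of KO over WT was 0.70 in ILC2-like, 0.96 in ILC precursor-like, 0.90 in NK or ILC1-like and 0.89 in CLP-like cells, all above the median of all genes. In ILC2-like cells 3 of 12 were called higher (Atf3, Klf4 and Nr4a1), in ILC precursor-like cells 5 of 12, in CLP-like cells 6 of 12 and in plasmacytoid dendritic cells 7 of 11. Of all genes, 0.898%, 1.82%, 1.49% and 1.06% were called higher in these classes. None was called lower in any of the 8 classes. Nr4a1, which encodes an orphan nuclear receptor, was 2.83 times higher in KO ILC2-like cells (2.06 to 3.94) and 6.32 times higher in KO CLP-like cells (5.17 to 7.80). Tiparp, with a log2 ratio of 1.11 in ILC2-like and 1.21 in NK or ILC1-like cells, lay above the median of the list there. With 0.63 in ILC precursor-like, 0.53 in CLP-like, 0.84 in plasmacytoid dendritic and 0.90 in basophil or mast cell-like cells it lay below it. The early genes thus differed between the libraries in the same direction as Tiparp, and their part in the Tiparp difference was not tested. With 1 library per genotype, the handling of a library and its genotype cannot be told apart.

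**Figure D4:**
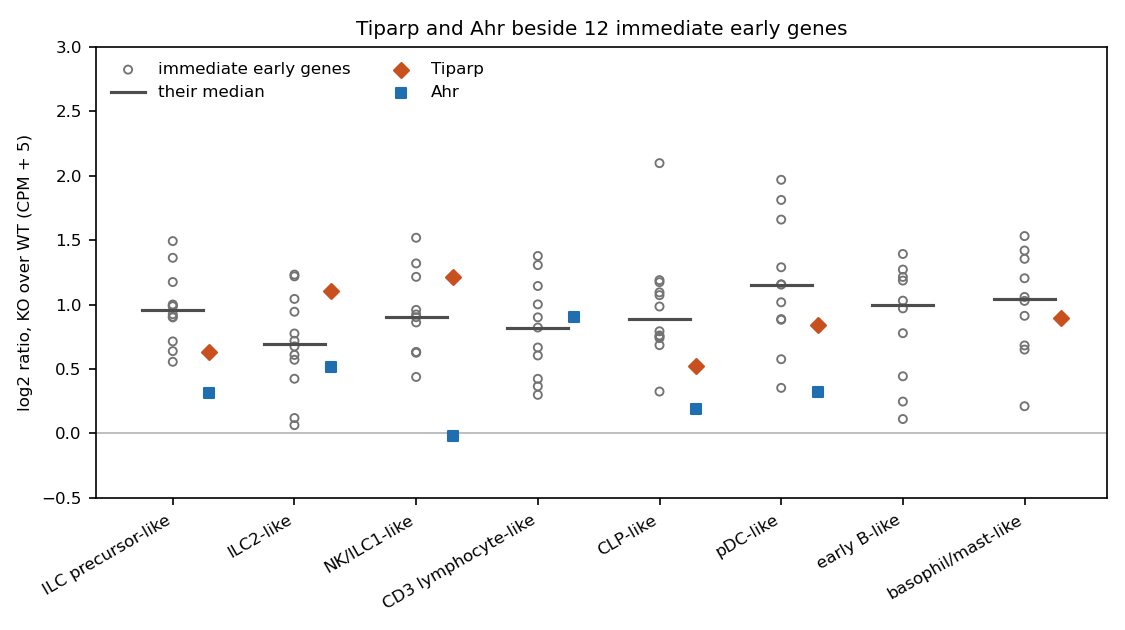
Log2 ratio of the KO over the WT level, taken on CPM + 5 (vertical axis), in 8 classes (horizontal axis) for 12 immediate early genes (circles, with a bar at their median), Tiparp (diamonds) and Ahr (squares), drawn only where a gene had at least 20 UMIs in the class. Circles lie above 0 in every class, and Tiparp lies above their median in ILC2-like and NK or ILC1-like cells and below it in the 4 other classes where it is drawn.

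Most of the remaining pathway genes were not called between the libraries, and the calls there were are all given here. Over the 8 classes, between 0.898% and 3.11% of all genes were called higher in KO and between 1.03% and 2.89% lower. Of the 10 partners and signalling genes of the IL-23 and IL-1 receptors, none was called in ILC2-like, ILC precursor-like or NK or ILC1-like cells, with medians of -0.15, 0.13 and 0.24 on the log2 scale. In CLP-like cells Il1r2, the decoy receptor for IL-1, was called higher, from 2.61 to 5.41 CPM, a ratio of 2.08 (1.40 to 3.14). In the same cells Il1r1 was lower in KO, as given above. Stat3 was called higher in early B-like cells, with 18 KO and 9 WT UMIs. Of the 6 genes beside lymphotoxin, Ltbr was called lower in ILC precursor-like cells, from 11.2 to 5.56 CPM. Tnf was called higher in CLP-like cells, from 13.9 to 29.5 CPM, and in basophil or mast cell-like cells, from 9.43 to 26.4 CPM.

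The 11 type 3 transcription factors and further ILC3 genes held 4 calls higher and 4 lower in KO over the 8 classes. Between 4 and 7 of the 11 genes had at least 20 UMIs in a class, so the calls come from these. Il6ra, a chain of the IL-6 receptor, was called higher in ILC2-like cells, from 6.14 to 22.0 CPM, a ratio of 3.58 (2.28 to 5.77). Nfkbiz, an NF-kappaB cofactor of cytokine genes, was called higher in 3 classes: from 49.3 to 105 CPM in CLP-like, from 32.3 to 94.1 CPM in early B-like and from 38.1 to 118 CPM in basophil or mast cell-like cells. The calls for the transcription factor genes Rora and Maf were all lower in KO. Rora went from 39.0 to 9.21 CPM in plasmacytoid dendritic cells and had 49 WT UMIs against 1 KO UMI in early B-like cells. Maf went from 141 to 65.7 CPM in CD3 lymphocyte-like cells and from 19.2 to 5.76 CPM in plasmacytoid dendritic cells. In early B-like and plasmacytoid dendritic cells the ILC2 markers Calca, Gata3 and Il1rl1 were called lower in KO as well. The summed level of the 8 ILC2 markers went from 210 to 43.0 CPM and from 214 to 115 CPM there. The part of transcripts from other cells in these Rora and Maf values was not tested. Of the 5 receptors for IL-17 and IL-22, between 2 and 4 were measured in a class, and none was called in any of the 8 classes.

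The genes whose levels were most like those of Il23r over the 17 groups were Ccr6, which is a marker of the gate, Rasl11a and Prr29, with Pearson correlations of 0.98, 0.98 and 0.97. For Ltb they were Il2rg, the common cytokine receptor chain, Cyld and Socs1 (0.98, 0.96 and 0.96). For Ahr they were Cd96, Lpxn and Thap3 (0.95, 0.94 and 0.91). For Tiparp they were CAAA01118383.1, AY036118 and Aff1 (0.89, 0.84 and 0.84). These come from 8658 genes, and the groups share libraries and depth, so they describe likeness only. Il23r was at 5.40 CPM or less in every group but KO ILC3-like cells (72.8 CPM), so its correlations rest mainly on that group. The WT ILC3-like class had too few cells to be among the groups.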

How the data were processed

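The deposited matrices hold whole UMI counts per gene and barcode. Per the file headers they were written by Cell Ranger (3.1.0), and per the submitters' processing notes the build is mm10. Seurat is also named there, with no role given. For the calling of cells, no setting was given in the labels.

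All members, marker lists and pathway lists were chosen with earlier results of these data known. Every member was named in every class with at least 30 cells, and from each pathway list up to 4 genes by size of difference or level. Other pathway genes and single markers were named after their values were seen. Counts were pooled per class and divided by the class total (CPM). Log2 ratios used a pseudocount of 5 CPM. Intervals are exact Poisson for levels, Clopper-Pearson for shares and conditional binomial for ratios (scipy 1.17.1), at 95%. No test was possible with 1 library per genotype, and no p-value is given. No doublets were removed: Scrublet (scanpy 1.11.5) marked 0 WT and 48 KO cells, so its call was not used. The rule of size was tested on simulated data. Similar genes needed 200 UMIs in all and 20 CPM in a group. One marker of the ILC3-like gate is not reported here. The alternatives were other limits on genes and mitochondrial UMIs, leaving out likely doublets, thinning, stricter gates, clusters (Leiden, 30 components, 15 neighbours), TMM factors, means over cells and no minimum of UMIs.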

Additional observations from a re-analysis of the deposited data

Results flagged for a closer look

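Ltb differed between the libraries in opposite directions in a pair of classes. Its log2 ratio of KO over WT was 0.22 in ILC precursor-like cells and -0.48 in basophil or mast cell-like cells, each with an interval of counting error that left out no difference. In basophil or mast cell-like cells the summed level of the 8 ILC2 markers also went from 423 (WT) to 194 CPM (KO). That of the 8 ILC precursor markers was 288 and 289 CPM. The part of transcripts from other cells in the Ltb value there was not tested. With 1 library per genotype, the difference between these classes was not tested.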

How the results depend on the processing

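The Tiparp ratio in ILC2-like cells was 2.44 and lay between 2.07 and 3.19 under 9 alternatives, the highest with cells thinned to 1500 UMIs. The Ahr ratio in these cells was 1.51 and lay between 1.26 and 1.62. The KO over WT ratio of the ILC3-like share was 8.37, reached 14.0 with a margin of 2 markers (7 WT and 129 KO cells) and lay between 8.45 and 11.3 under the 5 others. The genes past the rule of size, 2499 over the 8 classes, numbered 1560 with thinned cells, where fewer genes reach 20 UMIs. With clusters they numbered 3767 over 9 classes: erythroid-like cells, too few by gates, added 795, and basophil or mast cell-like cells (911 WT and 195 KO cells by clusters) had 775 in place of 348. In the 6 compared classes with at least 20 UMIs, the Tiparp ratio was not below 1 in any alternative that gave a value. The lowest ratios were 1.00 in NK or ILC1-like, 1.23 in ILC precursor-like and 1.42 in plasmacytoid dendritic cells. The Il1r1 ratio in CLP-like cells lay between 0.690 and 0.752. Of the other ratios and levels, 210 stayed within the interval of the reported value and 27 moved further. TMM factors shifted log2 ratios by 0.10 in ILC2-like and 0.16 in CD3 lymphocyte-like cells. The ILC3-like clusters took in 17 of 21 WT and 216 of 232 KO gated cells, among 28 and 380 cells. No paired analysis was possible because each genotype had 1 library.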
